A study of Mus musculus with 4 samples.

Results

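Two-cell-like state genes are described here in poly(A) RNA of mouse embryonic stem cells with and without DROSHA, the nuclear RNase that starts microRNA maturation. The 10 genes are Zscan4c, Zscan4d, Zscan4f, Tcstv1, Tcstv3, Usp17la, Zfp352, Tdpoz4, Tmem92 and Pramel7, chosen by symbol, and each matched 1 of the 43629 Ensembl genes counted. The knockouts were made with paired CRISPR/Cas9 cuts. KO1 lacks the Pro-rich region of Drosha and KO2 the R/S-rich region, both at passage 7, so each deletion is represented by 1 library. Their titles carry the mark d5, whose meaning is not given. WT1 and WT2 were wild-type E14 cells, an established embryonic stem cell line, at passages 33 and 42, and their labels mark both as re-used. All 4 libraries were labelled as 129/Ola blastocyst-derived cells grown in serum plus LIF. Passage and re-use follow the genotype, so genotype, passage and origin of the libraries cannot be told apart. The 2 libraries of a genotype differ in deletion or in passage, so they are not technical repeats of 1 sample. Whether they were otherwise separate experiments is not stated, and a p-value reflects the variation between these libraries alone.

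Cultures of mouse embryonic stem cells hold a small, shifting fraction of cells that switch on genes of the two-cell embryo, the stage at which the embryonic genome is first transcribed. The transcription factor DUX, endogenous retroviruses and the Zscan4 cluster mark this state, and cells pass in and out of it. Bulk RNA averages over the culture, so fewer cells in the state and less RNA per cell cannot be told apart here. The labelled cell type was checked with 10 embryonic stem cell markers, among them Pou5f1 and Nanog, which together had 5912 to 7097 CPM in each library (CPM are counts scaled to a fixed library size, with the TMM correction for composition). The sum hides shifts of single markers. At least 2-fold higher in WT2 were 2 of the 10, against 6.83% of all genes. These were Klf4 (151 CPM in WT1, 535 CPM in WT2) and Sox2 (320 and 649 CPM). Pou5f1 (848 and 527 CPM) was among 3 markers lower in WT2.

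Zscan4 genes encode proteins with a SCAN domain and zinc fingers that are known for telomere extension and genome stability. Zscan4c, Zscan4d and Zscan4f lie on chromosome 7 (GRCm38, 11005745 to 11010547, 11161374 to 11166159 and 11397915 to 11402318), on the plus, minus and plus strand. The longest open reading frame of each had 1521 bases, and the 3 differed at 38 positions. Zscan4c and Zscan4f were 99.6% identical in it, and Zscan4d was 97.7% identical to either. The 60 coding bases with the most differences run from base 1032 to base 1091 of that frame in GENCODE M21 transcripts. They hold 6 of the 38 positions of the frame by which a read can be told apart. Capitals mark the 6 positions that differ.
Zscan4c: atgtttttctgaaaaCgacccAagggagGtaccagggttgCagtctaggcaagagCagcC
Zscan4d: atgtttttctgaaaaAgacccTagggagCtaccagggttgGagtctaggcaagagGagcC
Zscan4f: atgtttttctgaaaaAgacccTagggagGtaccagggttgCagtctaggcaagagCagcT
By contrast, the 3 frames were identical over a run of 233 bases from base 406 to base 638, whose first 60 bases are shown.
Zscan4c, Zscan4d and Zscan4f: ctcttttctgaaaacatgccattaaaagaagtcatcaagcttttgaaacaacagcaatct

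Reads that lie wholly within such runs cannot be assigned to 1 gene by their sequence. Of the 50-base stretches of the longest annotated transcript, 85.5% for Zscan4c, 49.6% for Zscan4d and 95.3% for Zscan4f also occurred in transcripts of other annotated genes. The share was 41.2% for Tdpoz4, 31.4% for Tcstv3, 19.6% for Usp17la and 16.8% for Tcstv1, and it was 7.09% for Zfp352, 2.01% for Tmem92 and 0.442% for Pramel7. How such reads were counted is not given in the sources used here, so the split among Zscan4 genes is uncertain. Whether its few unshared stretches lower the count of Zscan4f was not tested. Pramel7, Tmem92 and Zfp352 are the genes whose counts depend least on how shared reads were counted. No member overlapped another annotated gene.

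**Figure D1:**
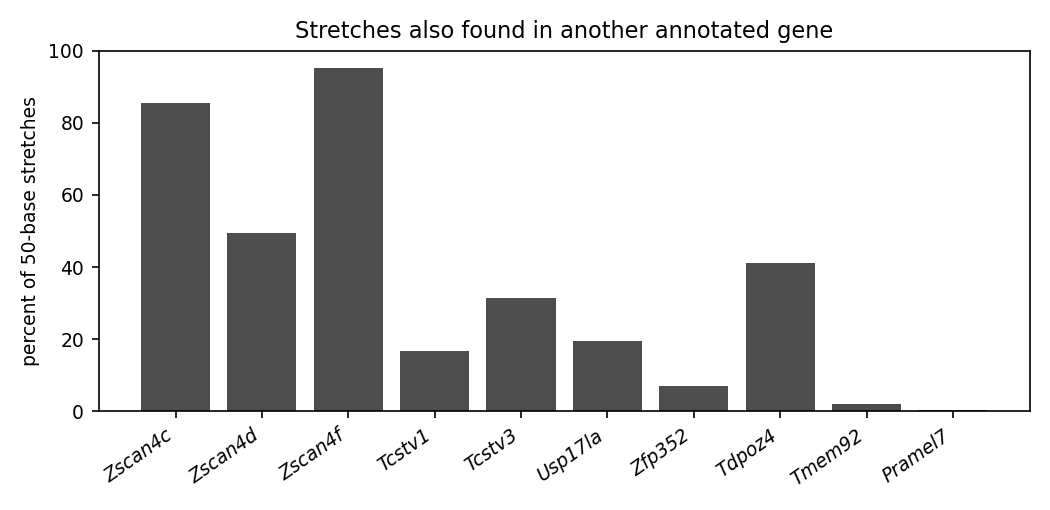
Bars give, for each gene, the percent of 50-base stretches of its longest GENCODE M21 transcript that are also present in a transcript of another annotated gene. Zscan4f (95.3%) and Zscan4c (85.5%) stand highest, and Pramel7 (0.442%) is nearly free of shared stretches.

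The promoters of the Zscan4 genes are related but less alike than the frames. Over 300 bases, identity was 90.4% between Zscan4c and Zscan4d, 85.1% between Zscan4c and Zscan4f and 77.5% between Zscan4d and Zscan4f. A 60-base window around shared letters is shown because it holds letters known from DUX sites. RefSeq promoters, which run from 250 bases before to 50 after the start (GRCm38.p6), matched 7 of the 10 genes, the others being Tcstv1, Tcstv3 and Tmem92. The letters GATTCAA, part of the site known for the homeodomain factor DUX, were searched on both strands after the sequences had been seen. They stood in the promoters of Zscan4c, Zscan4d and Zscan4f and in none of the 4 other matched promoters, against 2.13% of all 32851 promoters. Zscan4b, which is not among the 10 genes, had them too, 160 bases before its start, so they are not particular to the members. The longer core GATTNAATC, which overlaps it, was in 0 of the 7 and in 0.268% of all. In the 60-base windows below, Zscan4c (plus strand, chr7:11005536-11005595) and Zscan4f (plus strand, chr7:11397729-11397788) had the same letters, and Zscan4d (minus strand, chr7:11166309-11166368) differed from them at 2 positions. Capitals mark GATTCAA, which began 183, 194 and 160 bases before the start of Zscan4c, Zscan4d and Zscan4f.
Zscan4c: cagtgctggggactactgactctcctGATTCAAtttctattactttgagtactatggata
Zscan4d: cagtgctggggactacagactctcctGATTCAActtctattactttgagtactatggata
Zscan4f: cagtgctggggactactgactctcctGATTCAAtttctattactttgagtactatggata

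Library totals ran from 29264632 to 42322129 counts, and the members were rare, with 120 counts in KO1, 208 in KO2, 270 in WT1 but 24 in WT2 over all 10. Drosha itself, which checks the labels, had 158 CPM in KO1, 158 CPM in KO2, 364 CPM in WT1 and 357 CPM in WT2, and fell in the knockouts (log2 fold change -1.19 ± 0.11 (SE), edgeR adjusted p = 0.0482). The counts are over the whole gene and do not show the deleted part. The knockout libraries were close to each other, with a chi-square of 2.26 per degree of freedom over 14837 genes. The wild-type libraries were far apart, at 167 per degree of freedom over 14688 genes. Every result on the members below is therefore given by library.

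The summed level of the 10 genes was 3.89 CPM in KO1, 4.69 CPM in KO2, 6.76 CPM in WT1 and 0.667 CPM in WT2. WT2 stood apart from the other 3 libraries, and the knockouts lay between the wild types. WT1 was 10.1-fold above WT2, with an exact 95% interval of 6.68 to 16.1 that covers counting error only. The fold was 11.2 (6.08 to 23.0) for Zscan4c, Zscan4d and Zscan4f together and 9.23 (5.22 to 17.8) for the other 7 genes. The gap was therefore seen in both sets of genes, though Pramel7 gave 69 of the 133 counts of the other 7 in WT1. For the 9 genes without Pramel7, WT1 was 10.1-fold above WT2 (6.21 to 17.3). The summed knockouts over WT1 were 0.808 (0.674 to 0.970) for these 9 and 0.645 (0.547 to 0.760) for all 10.

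Zscan4c had the highest mean level per length over the 4 libraries, 0.484 CPM per kilobase, but not in each library. In WT1 Pramel7 was higher (0.810 against 0.616 CPM per kilobase), and in WT2 Zscan4f (0.0851) and Pramel7 (0.0781) were above Zscan4c (0.0244). It had 45 counts (1.46 CPM) in KO1, 66 counts (1.49 CPM) in KO2, 56 counts (1.40 CPM) in WT1 and 2 counts (0.0555 CPM) in WT2. The knockouts and WT1 were level and WT2 was nearly empty, with WT1 25.3-fold above it (6.67 to 214). The knockouts lay above both wild types, and groups did not overlap for 71.2% of all genes tested, but over WT1 the ratio of the summed knockouts was 1.05 (0.756 to 1.48). The edgeR quasi-likelihood test over both wild types gave a log2 fold change of 1.00 ± 1.20 (SE, adjusted p = 0.570).

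Zscan4d had 18 counts (0.583 CPM) in KO1, 60 counts (1.35 CPM) in KO2, 55 counts (1.38 CPM) in WT1 and 3 counts (0.0833 CPM) in WT2. KO2 and WT1 were alike, KO1 was lower and WT2 lowest, so the groups overlapped. WT1 was 16.5-fold above WT2 (5.37 to 82.6), and KO2 was 2.32-fold above KO1 (1.35 to 4.17). Zscan4f had 11 counts (0.357 CPM) in KO1, 19 counts (0.428 CPM) in KO2, 26 counts (0.651 CPM) in WT1 and 6 counts (0.167 CPM) in WT2, with WT1 3.91-fold above WT2 (1.57 to 11.6). It kept the same order of libraries with a smaller gap. Neither gene passed (log2 fold changes of 0.41 ± 1.19 and -0.07 ± 0.72, edgeR adjusted p = 0.821 and 0.954).

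The other Zscan4 genes of the cluster followed the same order of the wild types. Of the 50-base stretches of Zscan4b and Zscan4e, 90.3% and 91.6% also occurred in other genes. Their counts may therefore not be separate from those of the members. Zscan4b had 8 counts in KO1, 7 in KO2, 15 in WT1 but 1 in WT2, and Zscan4e 23, 20, 18 and 4. Duxf3, the Dux gene of these files, had 2 counts in KO2 and 0 in KO1, WT1 and WT2, so that it was at or under the floor of 3 counts in each library. Duxbl1, a Dux-like gene, had 0 counts in all 4 libraries, and both are largely repeated, at 58.9% and 97.2% of 50-base stretches. Zscan4b and Zscan4e did not pass (edgeR adjusted p = 0.993 and 0.348).

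Tcstv1 (chromosome 13, 119893388 to 119894785) and Tcstv3 (chromosome 13, 120316878 to 120318178) encode small proteins of the two-cell embryo that have been linked to telomere length. Tcstv1 was at the floor, with 1 count in KO1 and 0 in KO2, WT1 and WT2, and no fold is given. Tcstv3 had 5 counts in KO1, 6 in KO2, 5 in WT1 but 1 in WT2. WT2 was lowest, but the ratio of WT1 to WT2 was 4.51 (0.505 to 213), so that no difference was detectable at this depth. Neither gene reached the expression filter of the test.

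Usp17la (chromosome 7, 104857009 to 104862667) encodes a deubiquitinating enzyme of the DUB family. It had 10 counts (0.324 CPM) in KO1, 15 counts (0.338 CPM) in KO2, 24 counts (0.601 CPM) in WT1 and 3 counts (0.0833 CPM) in WT2. The knockouts lay between the wild types, and WT1 was 7.22-fold above WT2 (2.19 to 37.4). Its log2 fold change over both wild types was -0.07 ± 0.91 (edgeR adjusted p = 0.964).

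Zfp352 (chromosome 4, 90218820 to 90225702), a zinc finger gene, and Tdpoz4 (chromosome 3, 93796398 to 93797510), which encodes a protein with a POZ domain, had no count in WT2. Zfp352 had 3 counts in KO1, 11 in KO2 and 9 in WT1. Tdpoz4 had 6, 6 and 10. By the exact lower 95% bound, WT1 was at least 1.78-fold higher than WT2 for Zfp352 and at least 2.02-fold higher for Tdpoz4. With WT2 set to the floor of 3 counts, the ratios were 2.71 and 3.01, without the counting error of WT1. Neither reached the expression filter.

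Tmem92 (chromosome 11, 94777217 to 94782703) encodes a transmembrane protein and shares hardly any sequence with other genes. It had 11 counts (0.357 CPM) in KO1, 13 counts (0.293 CPM) in KO2, 16 counts (0.401 CPM) in WT1 and 3 counts (0.0833 CPM) in WT2. The order of the wild types was that of the Zscan4 genes, with WT1 4.81-fold above WT2 (1.38 to 25.8). The log2 fold change over both wild types was 0.39 ± 0.78 (edgeR adjusted p = 0.738).

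Pramel7 (chromosome 2, 87489087 to 87497093) encodes a PRAME-like protein known for keeping stem cells naive and for removing UHRF1. It had 10 counts (0.324 CPM) in KO1, 12 counts (0.270 CPM) in KO2, 69 counts (1.73 CPM) in WT1 and 6 counts (0.167 CPM) in WT2. Here WT1 stood apart, and the knockouts lay near WT2. The ratio of the summed knockouts was 0.169 over WT1 (0.0997 to 0.277) and 1.76 over WT2 (0.690 to 5.29). WT1 was 10.4-fold above WT2 (4.53 to 29.2), and the log2 fold change over both wild types was -1.68 ± 1.13 (edgeR adjusted p = 0.329). Its neighbour Pramel6 had the same order, with 22 counts in KO1, 26 in KO2, 135 in WT1 but 5 in WT2, and did not pass (edgeR adjusted p = 0.467).

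**Figure D2:**
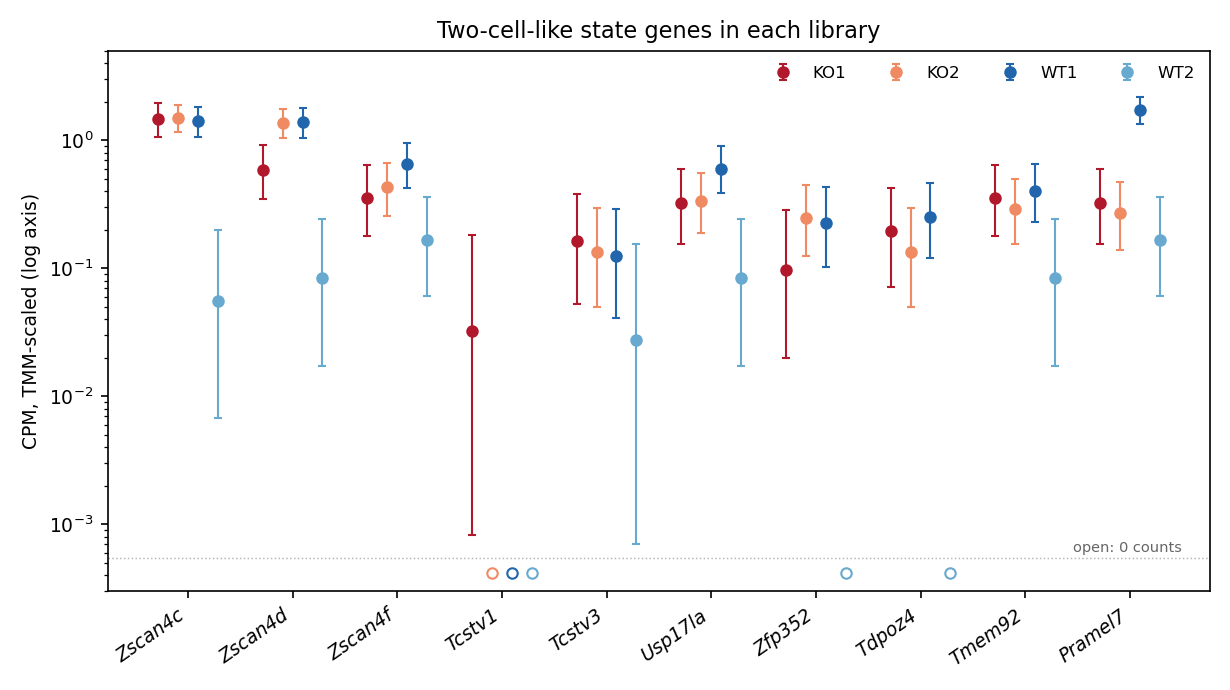
Points give the TMM-scaled CPM of each gene in each library on a log axis, and bars the exact Poisson 95% interval, which covers counting error only; open circles under the dotted line mark libraries with 0 counts. WT2 is the lowest library for 9 of the 10 genes (Tcstv1 has 1 count in all), and for Pramel7 both knockouts lie near WT2.

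Ranked by mean level per kilobase, Zscan4c (0.484) was followed by Zscan4d (0.374), Pramel7 (0.292), Zscan4f (0.205), Tcstv3 (0.145), Tdpoz4 (0.130), Tmem92 (0.130), Usp17la (0.127), Zfp352 (0.0627) and Tcstv1 (0.0058). The ranges over the 4 libraries overlapped for each of the 9 neighbouring pairs. Each range reached down to 0.0851 CPM per kilobase or less, the level in WT2, so this overlap was close to fixed in advance. It does not show whether the order holds in the other libraries.

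Between the wild types, 7 members had at least 10 counts in the pair, and WT2 was at least 2-fold lower for 7 of them. Among all 18007 genes with that many counts 15.0% were at least 2-fold lower in WT2 and 6.83% at least 2-fold higher. Among the 4154 genes with 10 to 75 counts, the range of the members, 31.3% were at least 2-fold lower. The highest ratio of WT2 to WT1 among the 7 was 0.256, for Zscan4f, and 14.6% of genes in that count range were at or under it. The comparison is of 1 library with 1 library, has no test, and compares those libraries rather than passages. Each of the 7 members passed the count filter through WT1, with 10 to 69 counts there against 0 to 6 in WT2. That all 7 were lower in WT2 is therefore partly set by the filter.

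Between the knockouts, 9 members had at least 10 counts in the pair and 2 differed at least 2-fold, Zscan4d and Zfp352. For Zfp352 the ratio of KO2 to KO1 was 2.55 (0.674 to 14.2), within counting error. Over genes with 11 to 111 counts, the range of the members, 11.7% differed as much, and 3.43% of all 18198 genes did. Zscan4c (1.02, 0.688 to 1.52), Usp17la (1.04, 0.438 to 2.60) and Pramel7 (0.834, 0.330 to 2.16) did not differ beyond counting error between the deletions.

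**Figure D3:**
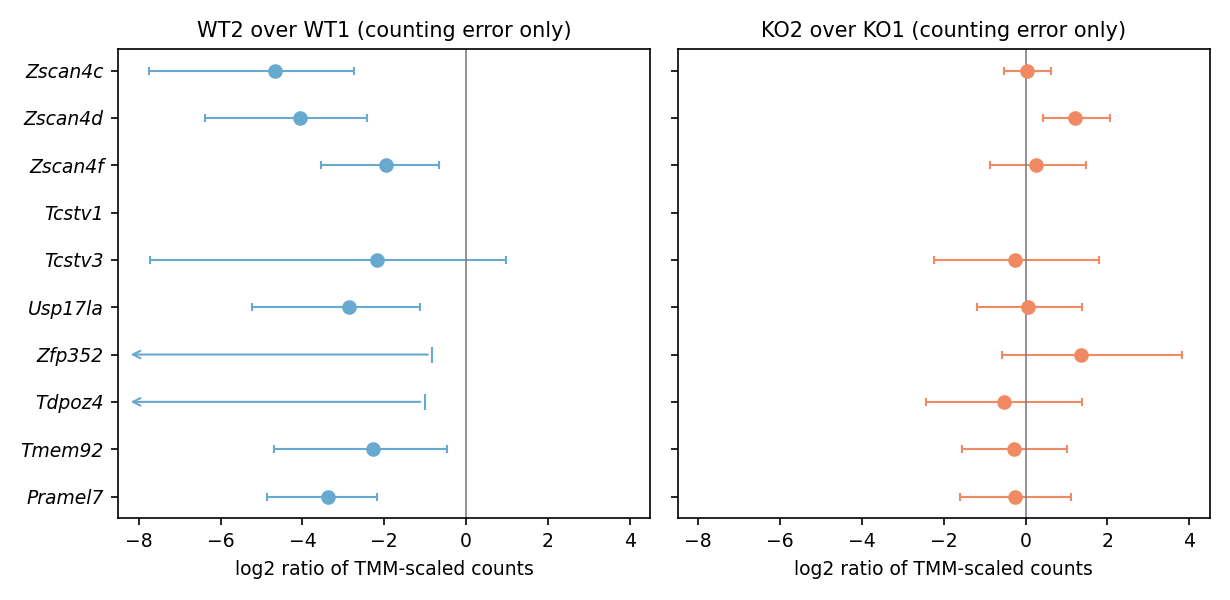
Points give the log2 ratio of TMM-scaled counts of WT2 over WT1 and of KO2 over KO1 for each gene with 5 or more counts in the pair, and bars the exact 95% interval for counting error; arrows mark genes with 0 counts in WT2, from the upper bound downward. The wild-type ratios lie below 0, with Tcstv3 the one whose interval crosses it, while the knockout intervals cross 0 except for Zscan4d.

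Over knockout and wild type, 6 members reached the expression filter of the test, namely Zscan4c, Zscan4d, Zscan4f, Usp17la, Tmem92 and Pramel7. Of these, 0 were called, with adjusted p-values from 0.329 to 0.964, and 0 had an unadjusted p under 0.05 in edgeR or in DESeq2. Of all 17022 genes tested, 5.45% were called, 3.51% higher and 1.94% lower in the knockouts. The log2 fold change was above 0 for 3 of the 6, with a median of 0.16, against -0.02 over all genes tested.

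Each wild type taken alone gave another picture. Without WT1, 4 members rose in the knockouts over WT2, namely Zscan4c (log2 fold change 4.65 ± 0.59), Zscan4d (3.57 ± 0.61), Usp17la (1.95 ± 0.87) and Tmem92 (1.90 ± 0.88), with edgeR adjusted p-values up to 0.0409. Zscan4f (1.24 ± 0.69) and Pramel7 (0.80 ± 0.75) did not pass (edgeR adjusted p = 0.0908 and 0.323). Without WT2, 8 members were tested and 1 was called, Pramel7, which fell (-2.54 ± 0.36, edgeR adjusted p = 3.26e-12), and Zscan4c was at 0.08 ± 0.25. In these fits the spread comes from the close knockout pair and the lone wild type is assumed to vary like it. Of all genes tested 39.6% were then higher and 38.1% lower over WT2, and 34.8% higher and 33.3% lower over WT1. Calls of this kind are therefore common among all genes.

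A wider list of two-cell genes showed the same split of the wild types. Like the members, it was chosen with earlier results of these data known. It also holds relatives of members, so it is not independent of them. Of 42 listed genes 36 had a row, 7 were at 0 in each library and 14 were tested, with 0 rises and 0 falls and a median log2 fold change of 0.41. Snai1 (1.00 ± 0.57) and Gm2016 (1.20 ± 0.80), with the smallest p, did not pass (edgeR adjusted p = 0.264 and 0.325). Of the 15 genes with at least 10 counts in the wild-type pair, 14 were at least 2-fold lower in WT2 and 1, Arg2, was not. Among all genes with that many counts 15.0% were, and 31.3% of those in the members' count range. Some of the 15, among them Ddit4l and Pramel6, had more counts than that range. As for the members, most of the 15 reached 10 counts in WT1 but not in WT2, so the filter partly sets this count. With WT1 left out, the median log2 fold change of the 14 tested was 2.93, and with WT2 left out it was -0.19.

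Several of these genes, named after their values were seen, belong to families of the two-cell embryo. Among the genes that resemble the translation factor eIF1A, Gm5662 had 52 counts in KO1, 63 in KO2, 62 in WT1 but 4 in WT2, and Gm8300 49, 53, 42 and 4. Both were level in 3 libraries and low in WT2. Usp17lb, Usp17lc and Usp17le, relatives of Usp17la, had 12, 9, 21 and 1 counts, 8, 15, 17 and 1 counts, and 21, 18, 37 and 5 counts, in the order KO1, KO2, WT1 and WT2. WT1 was the highest and WT2 the lowest library for these 3. Usp17ld had 4, 4, 5 and 0 counts, with KO1 (0.130 CPM) next to WT1 (0.125 CPM). Ddit4l, a stress-response gene with 159 or more counts in each library, had 12.1 CPM in KO1, 12.6 CPM in KO2, 19.9 CPM in WT1 and 4.42 CPM in WT2. Many of these genes are members of repeated families, with 77.9% of the stretches of Gm5662 found in other genes, while Ddit4l had 0.15%.

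Relative to WT1, the knockouts lay within 2-fold for 6 of the 7 members with at least 10 counts in the wild-type pair, the exception being Pramel7. They did so for 16 of 17 genes of the wider list and the other Zscan4 genes, the exception being Pramel6. Of all 18007 genes that reach 10 counts in that pair, 79.9% had knockouts within 2-fold of WT1. Of those in the members' count range, 59.1% did, and 17.9% combined this with a WT2 at least 2-fold lower.

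**Figure D4:**
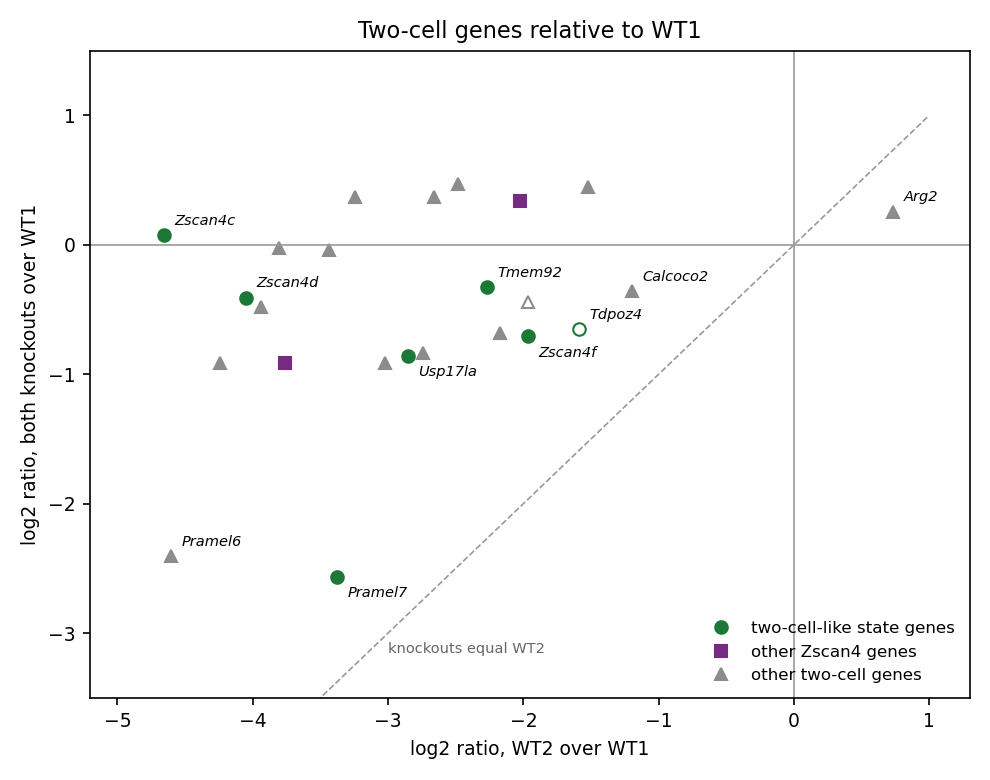
Each point is a gene with at least 10 counts in the wild-type pair, placed by its log2 ratio of WT2 over WT1 (horizontal) and of both knockouts summed over WT1 (vertical); open symbols have 0 counts in WT2, set to 3 counts, and on the dashed line the knockouts equal WT2. Most genes lie left of 0 and within 1 log2 unit of the horizontal line, while Pramel7 and Pramel6 lie more than 2 log2 units below it.

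Of the genes known to switch the state on, Dux was at or under the floor in each library, as given above, and 5 others were listed. Of the 5 activators tested 0 passed in edgeR, with 1 at an unadjusted p under 0.05, and 0 differed 2-fold between the wild types. Dppa2 had 82.3 CPM in KO1, 85.3 CPM in KO2, 97.7 CPM in WT1 and 105 CPM in WT2, and Dppa4 120, 121, 134 and 132 CPM. Both genes encode DNA-binding proteins that act upstream of Dux, and neither was low in WT2. Gata2, a transcription factor (log2 fold change 1.04 ± 0.35), and Trp53, which encodes p53 (0.30 ± 0.11), had the smallest p (edgeR adjusted p = 0.117 and 0.137).

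Of 25 genes known to restrain the state, 0 rose and 2 fell in the knockouts, with a median log2 fold change of -0.32, where 3.51% of all genes tested rose and 1.94% fell. With upper-quartile scaling, library totals alone, GC and length trends removed, or either knockout left out, 0 of the 25 were called, and DESeq2 called 1 higher and 6 lower. Mga, a subunit of a Polycomb-like repressor, had 214 CPM in KO1, 227 CPM in KO2, 544 CPM in WT1 and 415 CPM in WT2 (-1.12 ± 0.18). Smarcad1, a chromatin remodeller, had 188, 186, 363 and 314 CPM in that order (-0.86 ± 0.13). Both fell with edgeR adjusted p-values just under the threshold of 0.05 (0.0499 and 0.0492), and for both genes the groups did not overlap, as for 71.2% of all genes tested. Between the wild types 2 of the 25 were at least 2-fold lower in WT2, Ehmt2 and L3mbtl2, and 0 were 2-fold higher.

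The genes with the profile most like that of the summed members, by Euclidean distance of centred log2 CPM over the 4 libraries, were Apol6 (0.11), Slfn8 (0.12), Cmya5 (0.17), Wnt3a (0.17) and Zfhx3 (0.18). Zfhx3, a homeobox gene and the one with the most counts, had 11.2 CPM in KO1, 11.6 CPM in KO2, 18.0 CPM in WT1 and 1.69 CPM in WT2. Wnt3a, a WNT ligand, had 20 counts in KO1, 31 in KO2, 42 in WT1 but 2 in WT2. With 4 libraries such a likeness is a description only.

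Markers of other cell types moved between the wild types as well. The 10 endoderm markers summed to 68.6 CPM in KO1, 68.2 CPM in KO2, 242 CPM in WT1 and 416 CPM in WT2, with 7 of 9 at least 2-fold higher in WT2, against 6.83% of all genes, and Afp at 0 counts in both wild types. The 8 trophoblast markers summed to 44.0, 41.1, 39.4 and 20.6 CPM, with 4 of 6 at least 2-fold lower in WT2 (Elf5, Hand1, Ascl2 and Krt8), against 15.0% of all genes. Krt18 was lower by less than 2-fold, while Eomes went the other way, with a ratio of WT2 to WT1 of 1.97 (1.59 to 2.44). Among genes in the members' count range 31.3% were at least 2-fold lower, but Ascl2, Krt8, Krt18 and Eomes had more counts than that range. The 8 fibroblast markers summed to 58.4, 53.4, 39.9 and 32.4 CPM, of which Thy1 alone gave 40.8, 41.5, 31.5 and 25.9 CPM. Dcn had 51, 24, 0 and 0 counts (1.65 CPM in KO1 and 0.541 CPM in KO2). The part of these markers in the result was not tested. In the knockouts 3 of 8 endoderm markers fell and 0 rose (Cubn, Lama1 and Col4a1, each with an edgeR adjusted p = 0.0482), where 5.45% of all genes were called. Of 5 trophoblast markers 0 passed (Krt18 and Eomes had the smallest p), and of 6 fibroblast markers 0 passed (smallest for Dcn and Col3a1). Pax6 and Tubb3 rose among 4 neurectoderm markers, Stk31 fell among 6 germ cell markers and Utf1 rose among 10 embryonic stem cell markers. With upper-quartile scaling, library totals alone, GC and length trends removed or KO1 left out, 0 markers of the endoderm, neurectoderm, germ cell and embryonic stem cell lists were called, and with KO2 left out 1 was, of the endoderm.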

How the data were processed

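For each Ensembl gene the authors deposited unnormalised read counts. Alignment with STAR 2.4.2a and counting with featureCounts 1.4.5-p1 on mm10 are per the submitters' processing notes, and the protocol was reverse-stranded per the labels. The counting options, among them those for reads that match several places, and the annotation release are not given in the sources used here. A gene name table gave symbols for 97.3% of identifiers, and coordinates and transcripts came from GENCODE M21 (GRCm38).

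The main test on these counts was that of edgeR 4.0.16 under R 4.3.3 (TMM, filterByExpr with minimum count 10 and total 15, quasi-likelihood fit of group, Benjamini-Hochberg over all genes, threshold 0.05), with DESeq2 1.42.0 as an alternative. The script was tested on simulated data with the same dispersion, 0.02, in all libraries. Those data lack the large gap between the wild types, so they do not show how the test behaves with it. Standard errors are the log2 fold change over the root of F. Pairs of libraries were compared as ratios of TMM-scaled counts with exact conditional binomial 95% intervals, and sums with exact Poisson intervals (scipy 1.17.1). One count was worth 0.0236 to 0.0342 CPM before scaling. Intervals and floors cover counting error only, since reads were not collapsed to molecules. TMM factors were 1.05 for either knockout, 0.995 for WT1 and 0.908 for WT2. Scaling by library totals alone moved the median log2 fold change of the genes tested from -0.02 to 0.13.

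The members and gene lists were chosen with earlier results of these data known. Named were the 10 members, the other Zscan4 and Dux genes, called members of each list (up to 3 in each direction) or else the 2 with the smallest p, and the 5 nearest profiles. Genes named outside this rule are said to be so or are single exceptions to a count (Arg2, Pramel6). Others are examples of abundance (Pou5f1, Nanog, Dppa2, Dppa4, Thy1) or members of a small count (Klf4, Sox2, Ehmt2, L3mbtl2, Elf5, Hand1, Ascl2, Krt8). All of these were chosen after their values were seen.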

Additional observations from a re-analysis of the deposited data

How the results depend on the processing

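No member had more than 69 counts in a library, so depth limits the single genes, and where a library had 0 counts the limit is 3. The number of genes called in the knockouts (927) fell to 0 with upper-quartile scaling, library totals alone or GC and length trends removed (6267, 6116 and 4244 genes at an unadjusted p under 0.05 in edgeR), and was 3747 with DESeq2 (2050 higher) and 2663 without an expression filter. With the replicate number as a block it was 1929, and the block called 0 members. Deviations of KO1 and WT1 from their group means correlated at 0.05. With the wild types so far apart, that value cannot decide whether the replicate numbers mark pairs. Leaving out 1 library gave 0 to 13658 genes, with 0 without KO1, 22 without KO2, 13658 without WT1 and 12089 without WT2. Members called ranged from 0 to 4 (4 without WT1, 1 without WT2) and were 0 under the other alternatives (DESeq2 gave 4 of the 10 no adjusted p). Leaving out 1 library moved the log2 fold change from -0.41 to 3.57 for Zscan4d, -0.70 to 1.24 for Zscan4f, -0.84 to 1.95 for Usp17la, -0.32 to 1.90 for Tmem92 and -2.54 to 0.80 for Pramel7, and from 0.08 to 4.65 for Zscan4c, which kept its sign. Zscan4f turned to 0.051 with library totals, 0.24 with GC and length trends removed and 0.15 with the block, and Usp17la to 0.047, 0.099 and 0.29. The 7 members lower in WT2 stayed past 2-fold under each scaling, and at 20 counts in the pair 1 member differed 2-fold between the knockouts. The causes were not tested, except that leaving out a library removes its level.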
